A study of Mus musculus with 12 samples.

Results

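Interferon-stimulated genes are the genes that cells switch on when interferon reaches them, and 49 of them were followed here in chondrocytes that lack the phosphatases Phlpp1, Phlpp2 or both. They were taken by gene symbol from a list of well-known interferon targets, chosen with earlier results of these data known. All 49 were found among the 49315 genes of the count table. A filter on low counts kept 42 of them among the 16565 genes that were tested.

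RNA was sequenced in bulk from epiphyseal chondrocytes of mice aged 5 days, with 3 libraries for each of 4 genotypes: wild type (WT), Phlpp1 KO, Phlpp2 KO and Phlpp1/2 KO, in which both genes are lost. All 12 samples shared the same handling: release by collagenase, freezing, thawing and a night on plates in serum before RNA was taken. Every sample is labelled female. The strain is given as C57BL6 for WT, Phlpp1 KO and Phlpp2 KO 1 and 2, as C57BL7 for Phlpp2 KO 3, and as C57BL8, C57BL9 and C57BL10 for Phlpp1/2 KO 1, 2 and 3. These names count upward from sample to sample, so they may be an error of entry, and whether strain differed between samples is not known. The labels do not say which part of either gene was removed, whether each sample came from 1 animal or from pooled animals, or whether samples differed in batch, so p values measure only the spread between these samples.

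Phlpp1 and Phlpp2 remove phosphate from AKT and other kinases. In the interferon pathway, type I interferon binds the receptor made of Ifnar1 and Ifnar2, the kinases Jak1 and Tyk2 are activated, and Stat2 and Irf9 enter the nucleus as parts of the complex called ISGF3. ISGF3 binds the interferon-stimulated response element (ISRE) in the promoters of its targets, while type II interferon acts through another element, GAS. Many targets are also made at a low basal level without infection, and some, such as Stat2, Irf7 and Irf9, encode parts of the pathway itself.

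Library totals ran from 21706337 to 33115345 counts, so 1 count was worth 0.0295 to 0.0452 CPM (counts scaled to a common library size, with TMM factors). Chondrocyte markers were plain in every library: 8 of them, including Col2a1, Acan and Sox9, summed to 29856 to 54147 CPM. Phlpp1 averaged 39.6 CPM in WT (SD 4.35, n = 3), 9.16 CPM in Phlpp1 KO (SD 0.352) and 8.21 in Phlpp1/2 KO (SD 0.567). Phlpp2 averaged 25.4 CPM in WT (SD 2.85), 17.7 in Phlpp2 KO (SD 1.42) and 10.9 in Phlpp1/2 KO (SD 0.610). Among libraries all labelled female, 2 stood apart: Xist was 13.9 CPM in Phlpp1 KO 1 and 3.76 CPM in Phlpp1/2 KO 1, against 278 to 586 CPM in the other 10. Genes of the Y chromosome summed to 108 CPM in Phlpp1/2 KO 1 and were at 0 in Phlpp1 KO 1. Calls and medians of the members are also given without these 2 libraries; counts of groups that do not overlap and values of uncalled genes are given only with them.

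Promoter sequence was examined first. RefSeq windows of 300 bases (250 before and 50 after a start, GRCm38.p6) were found for 38 of the 49 members. The ISRE core was searched on both strands as GAAA, any 2 bases and GAAA, and was present in 19 of the 38 members (50%), against 3.99% of all 27025 genes with windows. The GAS core, searched as TTCNNNGAA on both strands, was present in 10 members (26.3%) against 9.55% of genes. The longer form, the ISRE core followed directly by CT, was present in 11 members (28.9%) against 0.303% of genes. The stretches below are shown because they hold the ISRE core in members from different role groups. Capitals mark matches to the ISRE core, on either strand, that lie whole within the stretch shown. Bases of the other motifs are not marked. Positions count from the start, with the last base before it at -1. Sequences are on the gene's strand.
Isg15, chr4:156200860-156200899, minus strand, -81 to -42: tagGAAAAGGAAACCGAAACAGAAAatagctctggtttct
Oas1a, chr5:120907526-120907554, minus strand, -29 to -1: ccttctcggGAAATGGAAACTGAAAatct
Bst2, chr8:71537572-71537611, minus strand, -139 to -100: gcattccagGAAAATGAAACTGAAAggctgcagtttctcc
Stat2, chr10:128270261-128270300, plus strand, -237 to -198: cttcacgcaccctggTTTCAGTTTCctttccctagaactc
Igtp, chr11:58199507-58199546, plus strand, -49 to -10: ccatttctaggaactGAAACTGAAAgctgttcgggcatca
Socs1, chr16:10785589-10785628, minus strand, -92 to -53: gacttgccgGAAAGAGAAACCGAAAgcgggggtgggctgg
Ifit3, chr19:34583392-34583431, plus strand, -137 to -98: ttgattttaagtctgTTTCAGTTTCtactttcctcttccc
Ifit3b, chr19:34607788-34607827, plus strand, -169 to -130: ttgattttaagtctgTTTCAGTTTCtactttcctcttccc
Ifit1, chr19:34640789-34640828, plus strand, -100 to -61: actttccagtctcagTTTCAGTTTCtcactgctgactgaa

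Overlapping copies of the core sit side by side in Isg15, Oas1a, Bst2 and Socs1, and the stretches of Ifit3 and its near-identical neighbour Ifit3b are the same letter for letter. The windows of Rtp4, Ifi27, Oas2, Usp18, Iigp1, Parp14, Parp9, Zbp1, Dhx58, Mx1 and Mx2 are not in the RefSeq table.

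As a group, the interferon-stimulated genes were at their lowest in Phlpp1 KO. Over the 42 tested members the median log2 fold change of Phlpp1 KO against WT was -0.54, against -0.01 over all 16565 tested genes, and 36 of the 42 (52.3% of all genes) lay below 0. Ranking the 4 genotype means put Phlpp1 KO lowest for 33 members (28.3% of all genes) and WT highest for 27 (31.5% of all genes). Only 4 members passed the test across all genes (0.537% of all genes did), and all 4 fell: Irf9, Xaf1, Parp12 and Lgals3bp. At an unadjusted p under 0.05, 24 members were lower (9.54% of all genes) and 1 was higher (10.8%). For 22 members every Phlpp1 KO library lay below every WT library (13.3% of all genes), and for 1, Ifit2, every one lay above (14.9%).

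Which members were called depended on single libraries. With 1 library left out at a time, between 0 and 7 members were called. There were 0 without WT 1 or 2 (38 and 16 genes called in all) or Phlpp1 KO 1 or 2 (31 and 24 genes). There was 1 without WT 3 (29 genes) or Phlpp1/2 KO 1 (64 genes). There were 2 without Phlpp1 KO 3 (57 genes), Phlpp2 KO 3 (67 genes) or Phlpp1/2 KO 2 (71 genes). There were 5 without Phlpp2 KO 2 (196 genes), and 7 without Phlpp2 KO 1 or Phlpp1/2 KO 3. Refits that called more genes mostly called more members. The median was between -0.59 and -0.43 in these 12 refits. Without the 2 libraries of low Xist no member was called and the median was -0.48, with 36 of 42 members below 0. DESeq2 called 10 members, 9 lower and 1 higher, among 990 genes called, against 89 genes called by edgeR. The 7 members called without Phlpp2 KO 1 or Phlpp1/2 KO 3 were likewise among 390 and 647 genes called.

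**Figure D1:**
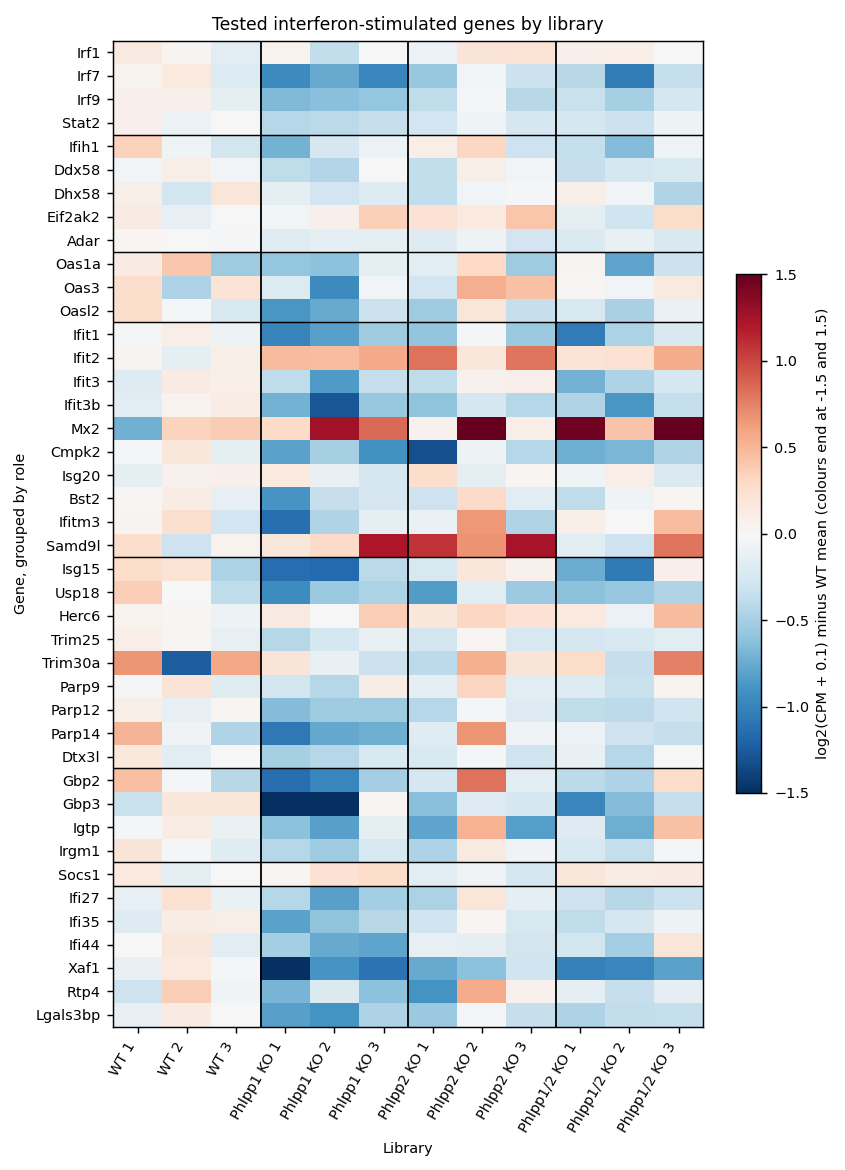
Level of each interferon-stimulated gene in the 12 libraries (columns, by genotype), as the log2 difference in CPM from the WT mean, with rows grouped by role. Phlpp1 KO 1 and 2 are the columns with most members below WT: 31 and 32 of 42 tested members lay below all 3 WT libraries there, against 30.4% and 30.8% of all tested genes.

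Among the signalling and transcription factors, Irf9 fell in Phlpp1 KO, and Irf7 and Stat2 lay below WT without passing the test. Irf9 (ENSMUSG00000002325, chromosome 14, 55603571 to 55610030, plus strand, mm10) is the DNA-binding part of ISGF3. It stood at 18.5, 18.4 and 15.7 CPM in WT, 11, 11.3 and 11.7 in Phlpp1 KO, 13.4, 17.1 and 13.1 in Phlpp2 KO, and 13.8, 12.4 and 14.5 in Phlpp1/2 KO. Phlpp1 KO and Phlpp1/2 KO each lay wholly below WT, Phlpp1 KO also lay wholly below the other knockouts, and Phlpp2 KO overlapped WT through library 2. The log2 fold change of Phlpp1 KO against WT was -0.63 (SE 0.11, a 1.55-fold drop, adjusted p = 0.0271, the quasi-likelihood test of edgeR, adjusted over all tested genes). The call was kept in 7 of 12 refits with 1 library left out, and without the 2 libraries of low Xist the value was -0.59 with an adjusted p of 0.155.

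Irf7, the factor that amplifies interferon production, stood at 2.67, 2.84 and 2.22 CPM in WT, 1.28, 1.48 and 1.25 in Phlpp1 KO, 1.70, 2.48 and 2.03 in Phlpp2 KO, and 1.90, 1.19 and 1.98 in Phlpp1/2 KO. Again Phlpp1 KO and Phlpp1/2 KO did not overlap WT. Its log2 fold change in Phlpp1 KO was -0.94 (SE 0.22) with an adjusted p of 0.0750. Stat2, the partner of Irf9, stood at 13.6, 12.1 and 12.9 CPM in WT and 9.52, 9.65 and 10.1 in Phlpp1 KO, with no overlap (log2 fold change -0.40, SE 0.10, adjusted p = 0.0851). Irf1, the main factor downstream of type II interferon, stood at 18.7, 17.5 and 15.1 CPM in WT, 17.7, 13.2 and 17 in Phlpp1 KO, 16.1, 19.5 and 19.7 in Phlpp2 KO, and 18, 18.3 and 17.1 in Phlpp1/2 KO. Every genotype overlapped WT, and in Phlpp1 KO the log2 fold change was -0.10 (SE 0.12, adjusted p = 0.685).

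Of the 5 tested sensors of foreign nucleic acid and RNA editing enzymes, none passed the test in Phlpp1 KO (0.537% of all genes did). In the same comparison 1 of 5 had Phlpp1 KO wholly below WT, as 13.3% of all genes did. That was Adar, which edits double-stranded RNA, at 39.8, 38.9 and 38.7 CPM in WT and 34.5, 35.6 and 35.3 in Phlpp1 KO. Its difference was small (log2 fold change -0.16, SE 0.06, adjusted p = 0.191), and it lay below all WT libraries in Phlpp2 KO (34.1, 37.0 and 32.1 CPM) and Phlpp1/2 KO (33.8, 36.1 and 33.3 CPM) as well. Ddx58, the RNA sensor known as RIG-I, stood at 22.7, 24.8 and 22.7 CPM in WT, 17.9, 17.2 and 23.5 in Phlpp1 KO, 18, 24.7 and 22.7 in Phlpp2 KO, and 18.4, 19.4 and 19.9 in Phlpp1/2 KO. Its Phlpp1 KO 3 library was within the range of WT, and Phlpp1/2 KO lay wholly below WT. Eif2ak2, the RNA-activated kinase PKR that halts translation, stood at 26.8, 22.6 and 24.3 CPM in WT, 23.9, 25.7 and 31.4 in Phlpp1 KO, 28.6, 27.2 and 32.8 in Phlpp2 KO, and 22.3, 19.9 and 29.6 in Phlpp1/2 KO. Phlpp2 KO lay wholly above WT, and Phlpp1 KO overlapped it (log2 fold change 0.14, SE 0.14). The RNA sensor Ifih1 and the related regulator Dhx58 had log2 fold changes of -0.37 (SE 0.26) and -0.22 (SE 0.18).

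The OAS enzymes, which make the messenger that activates RNase L, were scarce. Oasl2 stood at 0.633, 0.504 and 0.420 CPM in WT, 0.235, 0.263 and 0.391 in Phlpp1 KO, 0.325, 0.595 and 0.383 in Phlpp2 KO, and 0.418, 0.336 and 0.472 in Phlpp1/2 KO. Oas1a stood at 0.724, 0.900 and 0.420 CPM in WT, 0.404, 0.394 and 0.587 in Phlpp1 KO, 0.578, 0.826 and 0.421 in Phlpp2 KO, and 0.676, 0.336 and 0.502 in Phlpp1/2 KO. The groups of WT and Phlpp1 KO did not overlap for Oasl2 (log2 fold change -0.81, SE 0.35, adjusted p = 0.215) and overlapped for Oas1a (-0.57, SE 0.38, adjusted p = 0.416). Oas3 had a log2 fold change of -0.54 (SE 0.47). Oas1a shares 97.6% of 1861 bases with Oas1g, so its reads may be split between the copies, and its values are uncertain.

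The antiviral effectors, proteins that block virus entry, translation or release, had values in both directions. Of 10 tested, 7 lay below 0 in Phlpp1 KO (52.3% of all genes) and none passed the test (0.537%). In the same comparison 5 were wholly below WT (13.3% of all genes) and 1 was wholly above (14.9%). Ifit1, which binds foreign capped RNA, stood at 1.54, 1.69 and 1.49 CPM in WT, 0.740, 0.854 and 1.06 in Phlpp1 KO, 1.01, 1.55 and 1.03 in Phlpp2 KO, and 0.708, 1.1 and 1.33 in Phlpp1/2 KO. All Phlpp1 KO and Phlpp1/2 KO libraries lay below WT (in Phlpp1 KO, log2 fold change -0.84, SE 0.26, adjusted p = 0.115). Ifit3b stood at 1.90, 2.23 and 2.33 CPM in WT, 1.28, 0.821 and 1.41 in Phlpp1 KO (-0.89, SE 0.22, adjusted p = 0.0864), 1.37, 1.79 and 1.57 in Phlpp2 KO, and 1.54, 1.13 and 1.65 in Phlpp1/2 KO, so that all 9 knockout libraries lay below WT. Its copy Ifit3 stood at 5.52, 6.88 and 6.69 in WT and 4.84, 3.48 and 4.97 in Phlpp1 KO (-0.53, SE 0.18, adjusted p = 0.137). Phlpp1 KO did not overlap WT for either gene, but Ifit3 and Ifit3b share 97.8% of 1700 bases, so reads may be split between them.

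Ifit2 was the exception in this family. It stood at 13.3, 11.8 and 13.8 CPM in WT, 18.1, 17.9 and 19.2 in Phlpp1 KO, 22.9, 14.6 and 22.7 in Phlpp2 KO, and 14.9, 15.2 and 19.1 in Phlpp1/2 KO, so that all 9 knockout libraries lay above all 3 of WT. No contrast passed the test: the log2 fold changes against WT were 0.50 (SE 0.16, adjusted p = 0.116) in Phlpp1 KO, 0.63 (SE 0.15, adjusted p = 0.182) in Phlpp2 KO and 0.34 (SE 0.15, adjusted p = 0.444) in Phlpp1/2 KO. These 3 comparisons share the WT libraries. DESeq2 called it in Phlpp1 KO and in Phlpp2 KO. Samd9l, a restriction factor for poxviruses, stood at 8.82, 5.87 and 7.56 CPM in WT and 15.6, 11.7 and 17.3 in Phlpp2 KO, with no overlap (log2 fold change 1.01, SE 0.35, adjusted p = 0.249). In Phlpp1 KO it was 8.27, 8.93 and 17.0 CPM and in Phlpp1/2 KO 6.56, 5.90 and 12.8 CPM, with 1 high library in each, replicate 3, and overlap with WT.

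Ifitm3, which stops viruses from fusing in endosomes, was the most abundant member per length of exon, at 70.5 CPM per kb in WT, followed by Ifi27 at 31.2 and Lgals3bp at 15.8. It ranged widely within genotypes, at 48.7, 56.1 and 38.7 CPM in WT, 21.5, 34.5 and 42.6 in Phlpp1 KO, 44.0, 74.1 and 34.5 in Phlpp2 KO, and 50.3, 47.0 and 65.3 in Phlpp1/2 KO. Every genotype overlapped WT. Bst2, also called tetherin, had a log2 fold change of -0.48 in Phlpp1 KO (SE 0.19), Cmpk2 had -0.88 (SE 0.36) and Isg20 had -0.07 (SE 0.13). Mx2 had 74 counts over all 12 libraries, a near-identical copy in Mx1, and a log2 fold change of 1.29 with an SE of 0.98.

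Parp12 was the called member among the genes of ISG15, ubiquitin and ADP-ribosylation. Parp12 (ENSMUSG00000038507, chromosome 6, 39086410 to 39118349, minus strand) attaches ADP-ribose to proteins and restricts some RNA viruses. It stood at 12, 10.4 and 11.6 CPM in WT, 7.16, 7.78 and 7.75 in Phlpp1 KO, 8.39, 11.1 and 9.85 in Phlpp2 KO, and 8.66, 8.59 and 9.15 in Phlpp1/2 KO. As with Irf9, Phlpp1 KO and Phlpp1/2 KO lay wholly below WT and Phlpp1 KO lay below every other library. It fell by 0.58 on the log2 scale in Phlpp1 KO (SE 0.11, 1.5-fold, adjusted p = 0.0400), kept its call in 3 of 12 refits with 1 library left out, and had an adjusted p of 0.155 (log2 fold change -0.52) without the 2 libraries of low Xist.

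Of the 9 tested genes in this group, 8 lay below 0 in Phlpp1 KO (52.3% of all genes). Of these, 6 had an unadjusted p under 0.05 (9.54% of all genes were lower at that p). Isg15, the ubiquitin-like protein that is joined to other proteins, stood at 2.31, 2.2 and 1.34 CPM in WT and 0.807, 0.788 and 1.41 in Phlpp1 KO, overlapping through WT 3 and Phlpp1 KO 3 (log2 fold change -0.97, SE 0.34, adjusted p = 0.142). Parp14, a relative of Parp12, stood at 1.81, 1.19 and 0.879 CPM in WT, 0.538, 0.689 and 0.705 in Phlpp1 KO, 1.08, 2.02 and 1.19 in Phlpp2 KO, and 1.16, 0.978 and 0.944 in Phlpp1/2 KO. Phlpp1 KO lay below every other library (-0.99, SE 0.32, adjusted p = 0.124). Trim25, the ubiquitin ligase that activates RIG-I, stood at 34.1, 32.2 and 29.3 CPM in WT, 23.6, 26.4 and 29.4 in Phlpp1 KO, 26.4, 32.4 and 26.8 in Phlpp2 KO, and 26.7, 27.2 and 28.3 in Phlpp1/2 KO. Phlpp1/2 KO lay wholly below WT, and Phlpp1 KO overlapped it, with Phlpp1 KO 3 just above WT 3 (-0.27, SE 0.10, adjusted p = 0.152). Usp18, which removes ISG15 and blocks the type I receptor, had -0.71 (SE 0.24), and Dtx3l, the ligase partner of Parp9, had -0.39 (SE 0.15). Parp9 had -0.20 (SE 0.19), Trim30a -0.34 (SE 0.65) and Herc6, the mouse ligase for ISG15, 0.17 (SE 0.14).

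The interferon-induced GTPases attack the vacuoles of intracellular pathogens. All 4 tested lay below 0 in Phlpp1 KO (52.3% of all genes), and none passed the test (0.537%). Gbp2 stood at 3.35, 2.38 and 1.80 CPM in WT, 1.04, 1.18 and 1.68 in Phlpp1 KO, 2.02, 4.36 and 2.15 in Phlpp2 KO, and 1.83, 1.74 and 2.95 in Phlpp1/2 KO. Phlpp1 KO lay below every library of the other genotypes (against WT, log2 fold change -0.94, SE 0.36, adjusted p = 0.173). Irgm1 stood at 8.55, 7.42 and 6.61 CPM in WT, 5.55, 5.12 and 6.34 in Phlpp1 KO, 5.39, 8.2 and 7.24 in Phlpp2 KO, and 6.34, 5.84 and 7.35 in Phlpp1/2 KO. Phlpp1 KO lay wholly below WT and the other knockouts overlapped it (-0.41, SE 0.16, adjusted p = 0.185). Gbp3 had -0.99 (SE 0.41) and Igtp -0.58 (SE 0.45).

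Socs1 is the feedback inhibitor of the Jak kinases. It was 1 of 6 tested members above 0 in Phlpp1 KO against WT (7907 of all 16565 tested genes were). It stood at 10.4, 8.43 and 9.24 CPM in WT, 9.48, 10.8 and 11.3 in Phlpp1 KO, 8.35, 8.99 and 7.81 in Phlpp2 KO, and 10.5, 10.1 and 10.1 in Phlpp1/2 KO. Both genotypes that lack Phlpp1 lay above Phlpp2 KO with no overlap, and both overlapped WT. Against WT its log2 fold change in Phlpp1 KO was 0.17 (SE 0.11, adjusted p = 0.377).

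The remaining interferon-stimulated genes held the other 2 calls, Xaf1 and Lgals3bp. Xaf1 (ENSMUSG00000040483, chromosome 11, 72301629 to 72313733, plus strand) encodes a protein that promotes apoptosis. It was scarce, at 1.58, 1.91 and 1.68 CPM in WT, 0.437, 0.886 and 0.744 in Phlpp1 KO, 0.976, 1.09 and 1.38 in Phlpp2 KO, and 0.804, 0.825 and 0.944 in Phlpp1/2 KO. All 9 knockout libraries lay below WT, and all 6 without Phlpp1 lay below all 6 with it. It fell by 1.32 on the log2 scale in Phlpp1 KO (SE 0.25, 2.5-fold, adjusted p = 0.0323), kept its call in 5 of 12 refits with 1 library left out, and had -1.05 with an adjusted p of 0.146 without the 2 libraries of low Xist. About 190 of its exon bases match other transcripts at 95% identity or more, so a small part of its reads may belong elsewhere.

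Lgals3bp (ENSMUSG00000033880, chromosome 11, 118392751 to 118402092, minus strand) encodes a secreted glycoprotein that binds galectins. It stood at 41.3, 48.8 and 45.1 CPM in WT, 25.5, 24.1 and 32.6 in Phlpp1 KO, 30.6, 44.4 and 35.4 in Phlpp2 KO, and 32.5, 34.8 and 35.0 in Phlpp1/2 KO. Phlpp1 KO and Phlpp1/2 KO lay wholly below WT. It fell by 0.72 in Phlpp1 KO (SE 0.14, 1.65-fold, adjusted p = 0.0415), kept its call in 4 of 12 refits with 1 library left out, and had -0.65 with an adjusted p of 0.155 without the 2 libraries of low Xist. Ifi27, a mitochondrial and nuclear-envelope protein, stood at 41.7, 53.2 and 42.3 CPM in WT, 33.7, 25.8 and 31.8 in Phlpp1 KO, 32.6, 51.5 and 41.2 in Phlpp2 KO, and 36.5, 33.9 and 36.2 in Phlpp1/2 KO. Phlpp1 KO and Phlpp1/2 KO lay wholly below WT (in Phlpp1 KO, -0.59, SE 0.16, adjusted p = 0.0966). Ifi35 and Ifi44 did not overlap WT either, at -0.62 (SE 0.14, adjusted p = 0.0731) and -0.77 (SE 0.25, adjusted p = 0.126), while Rtp4, at -0.57 (SE 0.34), did.

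**Figure D2:**
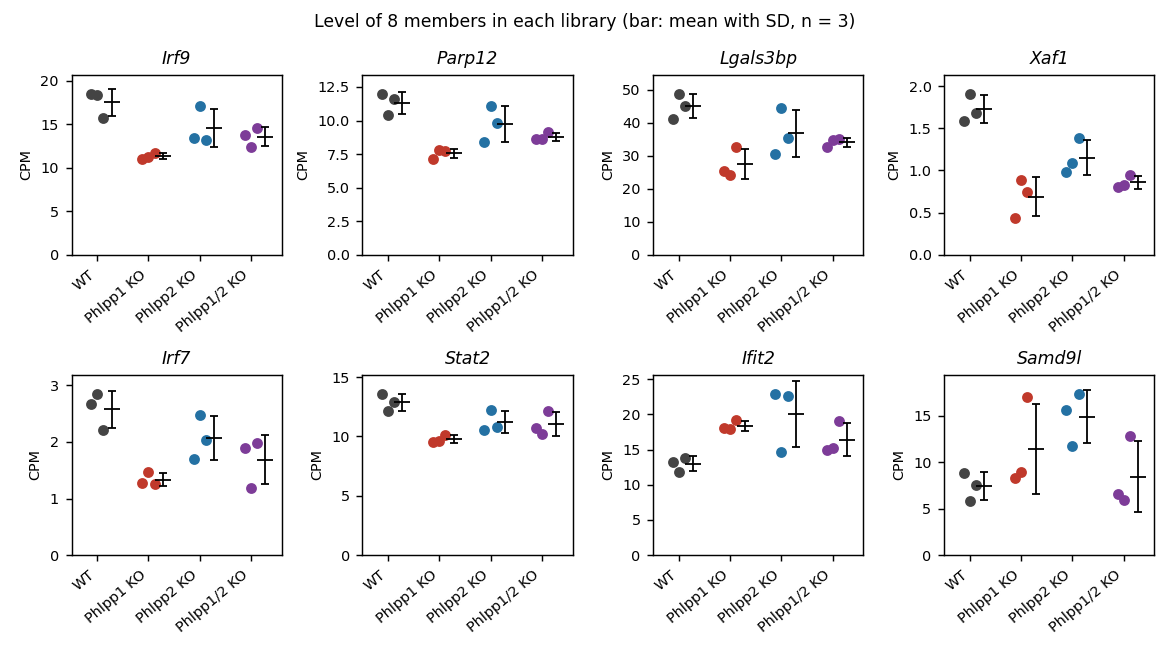
CPM of 8 interferon-stimulated genes in each library (points), with the mean and SD of 3 libraries per genotype (bars). The upper row holds the 4 called in Phlpp1 KO against WT, and Ifit2 in the lower row is above WT in all 9 knockout libraries.

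None of the windows of the 4 called members holds the ISRE core or the GAS core, which says only that these letters are not in these windows. The windows of Irf9 and Lgals3bp belong to starts inside the annotated gene. For Irf9 the last base before the start was 55603984 or 55604578, while the gene begins at 55603571. Sequence before the annotated beginning of Irf9 was therefore not searched. For Lgals3bp, on the minus strand, that base was 118401960, while the gene reaches 118402092. The windows of Xaf1 and Parp12, whose start lies at the annotated gene end, are shown for the 150 bases before the start (-150 to -1).
Xaf1, chr11:72301479-72301628, plus strand: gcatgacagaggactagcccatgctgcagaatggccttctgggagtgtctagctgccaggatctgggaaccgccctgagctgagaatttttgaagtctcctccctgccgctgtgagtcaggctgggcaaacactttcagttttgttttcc
Parp12, chr6:39118350-39118499, minus strand: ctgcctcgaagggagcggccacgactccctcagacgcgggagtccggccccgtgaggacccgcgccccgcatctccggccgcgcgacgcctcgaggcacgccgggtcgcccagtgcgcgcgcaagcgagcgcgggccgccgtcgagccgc

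Members were also divided by motif, as a description with no test. In Phlpp1 KO against WT, 52.3% of all tested genes lay below 0. The median log2 fold change was -0.53 over the 18 tested members with the ISRE core (16 below 0). It was -0.58 over the 17 without that core in their windows (14 below 0), Irf9 among them. For the longer form the median was -0.54 over 11 members with it (11 below 0) and -0.47 over 24 without it (19 below 0). For the GAS core it was -0.32 over 10 with the core (8 below 0) and -0.58 over 25 without it (22 below 0). In Phlpp1/2 KO against Phlpp2 KO the median was -0.19 with the ISRE core and -0.10 without it. Each set had 14 members below 0 (49.9% of all genes).

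Of the 7 members under the filter, Zbp1, a sensor of Z-form nucleic acid, and Oasl1 were above all knockout libraries in WT. How many other genes split this way was not counted, so whether this is unusual is not known. Zbp1 stood at 0.271, 0.252 and 0.267 CPM in WT, 0.101, 0.0985 and 0.157 in Phlpp1 KO, 0.145, 0.0661 and 0.0383 in Phlpp2 KO, and 0.0965, 0.0611 and 0.0885 in Phlpp1/2 KO. All 9 knockout libraries lay below WT, but there were 45 counts in all, 1 to 7 a library. Oasl1, with 21 counts, stood at 0.136, 0.108 and 0.115 CPM in WT and at 0 to 0.0766 CPM in the 9 knockout libraries. Oas2 had 27 counts, Mx1 3, Rsad2 66, Iigp1 27 and Sp100 61, and none of these 5 separated all knockout libraries from WT. The 7 entered no test.

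Loss of Phlpp2 alone left the group nearer WT. In Phlpp2 KO against WT the median over the 42 members was -0.14, and 29 were below 0 (53.9% of all genes). None passed edgeR's test (0.121% of all genes did) and DESeq2 called 1, Ifit2. At an unadjusted p under 0.05 there were 7 members (13.8% of all genes), 2 higher and 5 lower. The groups did not overlap for 3 members below WT (8.87% of all genes), Adar, Ifit3b and Xaf1, and for 4 above (10.3%), Eif2ak2, Ifit2, Samd9l and Herc6. One library decides much of this: Phlpp2 KO 2 had 3 of 42 members below all WT libraries (25.2% of all genes) and 14 above (27.5%). Phlpp2 KO 1 had 25 below (33.6%) and 5 above (31.1%), and Phlpp2 KO 3 had 22 below (32.8%) and 6 above (27.4%). Without Phlpp2 KO 2 the median was -0.24, and without Phlpp2 KO 1 it was -0.04.

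With both genes lost, most members also lay below WT. In Phlpp1/2 KO against WT the median was -0.22 and 33 of 42 members were below 0 (50.4% of all genes). None was called by edgeR (0.235% of all genes were) or DESeq2. At an unadjusted p under 0.05, 14 were lower (6.09% of all genes) and 2 higher (4.99%). The groups did not overlap for 15 members below WT (10.3% of all genes) and for 2 above (8.56%), Ifit2 and Mx2. This comparison and that of Phlpp1 KO share the 3 WT libraries. Among the 4 members called in Phlpp1 KO, the values here were -0.37 for Irf9 (SE 0.11, adjusted p = 0.266), -1.01 for Xaf1 (SE 0.23, adjusted p = 0.150), -0.36 for Parp12 (SE 0.11, adjusted p = 0.266) and -0.40 for Lgals3bp (SE 0.13, adjusted p = 0.321). Without the 2 libraries of low Xist the median was -0.19, with 32 members below 0.

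Set directly against each other, Phlpp1/2 KO lay above Phlpp1 KO. The median was 0.22 and 7 of 42 members were below 0 (49.4% of all genes). None was called by edgeR (0.0121% of all genes were) or DESeq2, and 5 had an unadjusted p under 0.05 (7.90% of all genes), all higher: Irf9, Ifitm3, Ifi35, Ifi44 and Lgals3bp. The groups did not overlap for 10 members that were higher (7.18% of all genes), Irf9, Stat2, Oas3, Ifitm3, Parp12, Parp14, Gbp2, Ifi27, Ifi35 and Ifi44, and for 0 that were lower (6.03%). The median was 0.10 without Phlpp1/2 KO 3, and 0.19 with 9 members below 0 without the 2 libraries of low Xist.

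Phlpp1 KO also lay below Phlpp2 KO. The median was -0.38 with 40 of 42 members below 0 (49.8% of all genes). None was called by edgeR (0.151% of all genes were) or DESeq2, 13 were lower at an unadjusted p under 0.05 (5.61% of all genes) and 1, Socs1, was higher (4.83%). For 10 members the Phlpp1 KO libraries lay wholly below those of Phlpp2 KO (6.78% of all genes) and for Socs1 wholly above (7.35%). The 10 were Irf7, Irf9, Stat2, Isg15, Parp12, Parp14, Gbp2, Ifi35, Ifi44 and Xaf1. Without Phlpp2 KO 2 the median was -0.23, and without the 2 libraries of low Xist it was -0.28 with 39 members below 0.

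Loss of Phlpp1 can be read a second time, in Phlpp1/2 KO against Phlpp2 KO, which shares no library with Phlpp1 KO against WT. There the median was -0.12 and 33 of 42 members were below 0 (49.9% of all genes). None was called by edgeR (0.0724% of all genes were) or DESeq2, and 3 had an unadjusted p under 0.05 (8.84% of all genes): Ifit3, Samd9l and, higher, Socs1. The groups did not overlap for 1 member that was lower, Xaf1 (4.91% of all genes), and 1 that was higher, Socs1 (7.51%). Across both comparisons 29 of the 42 members (69.0%) were below 0 in each, against 26.4% of all tested genes. With 36 and 33 members below 0 in the comparisons taken alone, a large shared number does not show agreement gene by gene. Pearson's r of the 2 log2 fold changes was 0.388 over the members and 0.101 over all genes. The member r leans on Mx2, highest in both (1.29 and 0.78) with 74 counts over all 12 libraries. It was not computed without Mx2. Genes of 1 library are not independent of each other, so these are descriptions. The second reading depends on Phlpp2 KO 2: without it the median was 0.02, with 20 members below 0. Without the 2 libraries of low Xist it was -0.12, with 32 below 0.

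**Figure D3:**
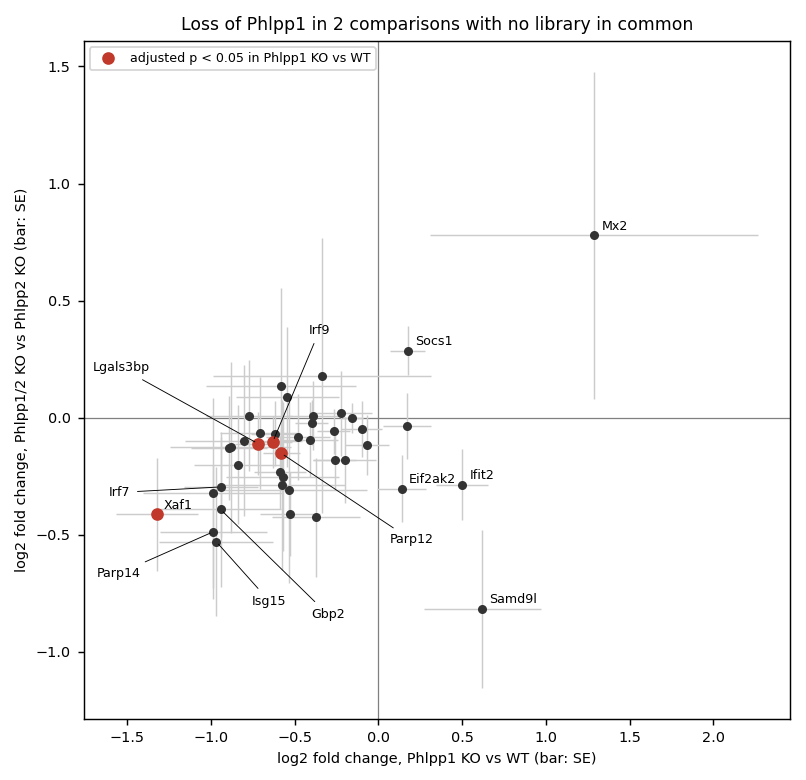
Log2 fold change of 42 interferon-stimulated genes on loss of Phlpp1 with Phlpp2 present (horizontal, Phlpp1 KO against WT) and with Phlpp2 lost (vertical, Phlpp1/2 KO against Phlpp2 KO), with SE bars and the 4 called genes in red. Most points, 29 of 42, lie in the lower left, and 5 genes (Eif2ak2, Ifih1, Isg20, Samd9l and Socs1) have the larger size on the vertical axis.

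Averaged over both backgrounds, 6 libraries without Phlpp1 against 6 with it, the median was -0.35 and 38 of 42 members were below 0 (49.1% of all genes). Xaf1 was the member called (0.592% of all genes were), at -0.87 (SE 0.17, adjusted p = 0.0438). Its 6 libraries without Phlpp1 lay wholly below the 6 with it, as for 0.634% of all genes. With 1 library left out, its call was kept in 1 of 12 refits, with adjusted p values from 0.0196 to 0.124, and it was lost without the 2 libraries of low Xist, where the median was -0.27. At an unadjusted p under 0.05 there were 21 lower members (8.36% of all genes) and 1 higher, Socs1 (6%). For Phlpp2, read the same way, the median was 0.03 and 15 members were below 0 (50% of all genes). None was called by edgeR (0.0906% of all genes were) or DESeq2, and 1, Adar, had an unadjusted p under 0.05 (6.94% of all genes).

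Whether the effect of losing Phlpp1 differed with Phlpp2 present or absent was tested as an interaction. Its median was 0.39, with 7 of 42 members below 0 (43.9% of all genes), and no member was called by edgeR (0.0483% of all genes were). At an unadjusted p under 0.05, 8 members were above 0 (4.48% of all genes), that is, less lowered in the second background: Irf9, Stat2, Ifit3b, Parp12, Ifi35, Ifi44, Xaf1 and Lgals3bp. Ifit2 and Samd9l were below 0 (10.1% of all genes). The smallest p belonged to Ifit2 (-0.79, SE 0.22, adjusted p = 0.151), the 1 member that DESeq2 called. Irf9 had 0.53 (SE 0.16, adjusted p = 0.155) and Lgals3bp 0.61 (SE 0.19, adjusted p = 0.168). Without the 2 libraries of low Xist the median was 0.33 and edgeR called no member, while without Phlpp1/2 KO 3 it called 3, among 1196 genes.

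Within genotypes most pairs of members correlated above 0 from library to library. The same was not computed for other genes, so it is not shown to be particular to the members. The mean over 42 members of the log2 level minus the WT mean was 0.06, 0.01 and -0.07 in WT, -0.54, -0.48 and -0.23 in Phlpp1 KO, -0.29, 0.19 and -0.12 in Phlpp2 KO, and -0.24, -0.37 and -0.00 in Phlpp1/2 KO. All Phlpp1 KO libraries lay below all WT libraries, Phlpp1/2 KO overlapped WT through library 3, and Phlpp2 KO spanned the range of WT on both sides. Of the 861 pairs of members, 680 correlated above 0 over the 12 libraries (median r 0.494), and 710 did so after the genotype means were removed (median r 0.386), a description over libraries that share depth and scaling. Over the 12 libraries, genotype differences included, the members closest to the mean of the others were Oasl2 (r = 0.950), Gbp2 (0.923) and Irgm1 (0.922). Ifit2 (-0.440), Isg20 (-0.394), Socs1 (-0.288) and Mx2 (-0.031) ran against that mean. With the genotype means removed, the closest were Oasl2 (0.929), Igtp (0.912) and Gbp2 (0.905). Isg20 (-0.904), Ifit2 (-0.321) and Dhx58 (-0.135) then ran against the mean of the others, while Socs1 (0.456) did not.

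Markers of other cell types were measured in the same libraries, which are bulk samples, so that fewer cells of a type and less RNA per cell cannot be told apart here. The sum of 10 macrophage markers was 53.5 to 60.2 CPM in WT, 46.2 to 51.2 in Phlpp1 KO, 48.9 to 64.5 in Phlpp2 KO and 50 to 68.1 in Phlpp1/2 KO, so the Phlpp1 KO libraries lay below WT in this sum too. That came from 3 of the 10, Csf1r, Cd68 and Cd14, whose means were below WT. The other 7 had means above WT, and Adgre1 and Mrc1 lay wholly above it. Sums of 7 T and NK cell, 5 B and plasma cell and 7 neutrophil markers were at most 1.53 CPM in any library, with Nkg7, Gzma and Ms4a1 at 0 in all 12. Of 4 plasmacytoid dendritic cell markers, Siglech had 1 count over all 12 libraries, Ccr9 30, Irf8 160 and Tcf4, which many cell types express, 37711. Endothelial markers summed to 4.09 to 7.60 CPM in WT and to 2.49, 5.02 and 10.5 in Phlpp1 KO. Fibroblast and perichondrium markers summed to 1139 to 1501 CPM in WT and 1014 to 1286 in Phlpp1 KO. For skeletal muscle the sums were 14.4 to 70.0 and 7.90 to 32.2 CPM, and for keratinocytes 7.41 to 8.97 and 7.08 to 10.4 CPM. Phlpp1 KO overlapped WT in each of these sums. The part of other cells in the members' levels was not tested.

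**Figure D4:**
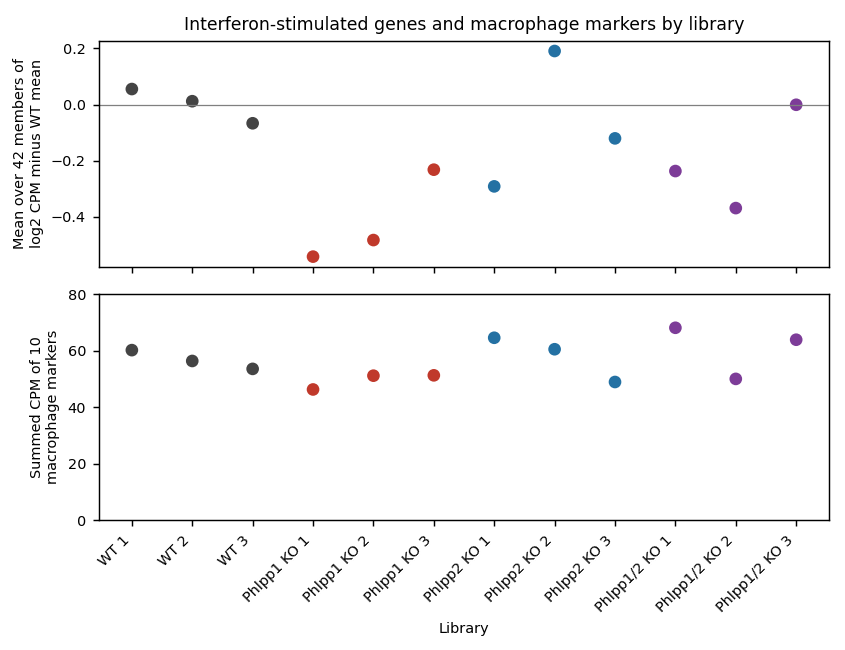
Upper panel: mean over 42 interferon-stimulated genes of the log2 CPM minus the WT mean, in each library. Lower panel: summed CPM of 10 macrophage markers in the same libraries. In the upper panel Phlpp1 KO is at -0.54, -0.48 and -0.23, below WT but with library 3 above Phlpp2 KO 1 (-0.29) and Phlpp1/2 KO 1 and 2 (-0.24 and -0.37); in the lower panel it is below WT.

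Upstream of the members, interferons themselves were all but absent. Of 10 interferon genes, 6 (Ifna2, Ifna4, Ifnb1, Ifng, Ifnl2 and Ifnl3) had no count in any library, and Ifna1, Ifnk, Ifne and Ifnab had 1, 1, 4 and 5 counts over all 12, so no difference was detectable at this depth. The receptors were present: Ifnar1 averaged 66.7 CPM in WT (SD 4.54) and 59.7 in Phlpp1 KO (SD 2.66), and Ifnar2 averaged 28.3 (SD 1.83) and 23.9 (SD 1.47). Of 41 listed pathway genes that are not members, 30 were tested. In Phlpp1 KO against WT, 1 of the 30 passed the test (0.537% of all genes did) and 22 were below 0 (52.3%). The median was -0.10, against -0.01 over all tested genes. At an unadjusted p under 0.05 there were 10 of the 30 (20.4% of all genes), 8 lower and 2 higher.

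The pathway gene that passed was Myd88, the adaptor of Toll-like and interleukin-1 receptors, at 59.8 CPM in WT (SD 1.81) and 45.2 in Phlpp1 KO (SD 2.39), a fall of 0.40 on the log2 scale (SE 0.08, adjusted p = 0.0421). Without the 2 libraries of low Xist, an alternative chosen for it after the data were seen, it had -0.35 with an adjusted p of 0.155. Stat3, the factor downstream of interleukin-6, stood at 173 CPM in WT (SD 1.63) and 130 in Phlpp1 KO (SD 8.90), or -0.41 on the log2 scale (SE 0.10, adjusted p = 0.0827). Irf2, which competes with Irf1 for its sites, had -0.31 (SE 0.08, adjusted p = 0.0851). Tbk1, the kinase that activates Irf3, had 0.21 (SE 0.07, adjusted p = 0.122), above WT in all 3 libraries. No pathway gene was called by edgeR in Phlpp2 KO or Phlpp1/2 KO against WT, where 4 and 3 of the 30 had an unadjusted p under 0.05, against 13.8% and 11.1% of all tested genes.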

How the data were processed

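Bulk RNA was sequenced from 12 chondrocyte samples, 3 of each of 4 genotypes, grouped by the genotype label. The deposited table holds raw counts per gene, with no normalization by the authors. Per the submitters' processing notes, the tools were bcl2fastq 2.17, STAR 2.5.2b and featureCounts of Subread 1.5.2 with the mm10 build. Neither the annotation release nor the strand setting nor the rule for multi-mapped reads is given in the sources used here, so near-identical copies and overlapping genes may share reads. All sample columns of the table were used.

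Tests on these counts used edgeR 4.0.16 (R 4.3.3). The low-count filter kept 16565 of 49315 genes, which held at least 99.9% of every library. Rows with no symbol held 0.00419% of the counts. Libraries were scaled with TMM factors (0.982 to 1.02). All 12 libraries entered 1 model of genotype with 8 residual degrees of freedom and a common biological coefficient of variation of 0.105. Contrasts were tested across all genes with the robust quasi-likelihood test, Benjamini-Hochberg adjustment ran over all 16565 genes, and a gene was called at an adjusted p under 0.05. SE is that of the log2 fold change. The code was tested on simulated data. SD is over 3 libraries, and 3 libraries a group limit the precision of every value.

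The members, the pathway and marker lists and the tests were chosen with earlier results of these data known. By rule, values in every library were given for called members and, in each role group, for the 2 most abundant and the 2 with the smallest p in Phlpp1 KO against WT. Pathway genes were given as counts, with values for the 4 with the smallest p, among them the 1 called. Library values of Stat2, Ifit3, Isg15, Samd9l, Zbp1 and Oasl1, and the means of Ifnar1 and Ifnar2, were added after their values were seen. The alternatives were no low-count filter, RLE factors, DESeq2 1.42.0, limma-voom (limma 3.58.1), a replicate block, a fit of the compared genotypes alone, each library left out in turn, and the 2 libraries of low Xist left out. Positions and exon lengths came from GENCODE vM21, promoter windows from RefSeq (GRCm38.p6), and copies from BLAST+ 2.17.0 (95% identity or more across 150 bases or more).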

Additional observations from a re-analysis of the deposited data

How the results depend on the processing

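Medians over the 42 members kept their sign under every alternative run, with exceptions where the median was near 0: Phlpp1/2 KO against Phlpp2 KO went from -0.12 to 0.02 without Phlpp2 KO 2, and loss of Phlpp2 averaged over both backgrounds ran from -0.04 to 0.10 with 1 library left out. With 1 library left out, Phlpp1 KO against Phlpp2 KO ran from -0.50 to -0.23, Phlpp1/2 KO against WT from -0.30 to -0.16 and the interaction from 0.25 to 0.51. No called value changed sign. For Phlpp1 KO against WT, where edgeR called 4 members among 89 genes, there were 7 with no low-count filter (461 genes) and 10 with DESeq2 (990 genes). There were 10 in a fit of the compared genotypes alone (1163 genes) and 0 without the 2 libraries of low Xist (18 genes). With 1 library left out there were 0 to 7 (16 to 647 genes). For the average over both backgrounds (1 call on loss of Phlpp1, among 98 genes) there were 5 with no low-count filter (274 genes), 7 with DESeq2 (400 genes), 0 without the 2 libraries of low Xist, and 0 to 7 with 1 library left out. Phlpp2 KO against WT had 1 call with DESeq2 (317 genes) and 0 to 1 with 1 library left out. The interaction had 1 with DESeq2 (650 genes) and 0 to 3 with 1 library left out. RLE factors and limma-voom kept 4 calls in Phlpp1 KO against WT. The other contrasts had 0 calls under every alternative. Where a genotype kept 2 libraries, the spread was pooled over genotypes.

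Samples that share a replicate number did not deviate together (18 pairs, r from -0.266 to 0.457, median -0.04), so the numbers were not taken to pair the samples. With a replicate block, 5 members were called in Phlpp1 KO against WT (245 genes), 2 in the interaction (Ifit2 and Samd9l, 308 genes), and 0 on loss of Phlpp1 over both backgrounds. No other count of called members changed under the block. Depth limits the scarce members: at 0.0295 to 0.0452 CPM per count, those under 0.5 CPM rest on a few counts per library.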
